A study of Homo sapiens with 6 samples.

Results

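Collagens and laminins are the main structural proteins of the extracellular matrix, and the RNA-seq of T24 cells measured 51 of their genes analysed here among the 23152 genes of the deposited count table. The members were rows whose symbol has the form of a collagen chain (COL, a number, A, a number) or of a laminin chain (LAMA, LAMB or LAMC and a digit), which gave 40 collagen and 11 laminin genes. COL10A1, COL19A1, COL23A1 and COL6A5 had no row in that table, so no level can be given for them. T24 is an established human bladder cancer (BLCA) cell line. The comparison was between 3 samples each of cells that carried the empty vector (vector) and cells in which the E3 ubiquitin ligase RNF112 was overexpressed (oeRNF112), by a route not given for these samples in the sources used here. All samples came from this 1 line with no other agent named for either group, although the treatment text in the labels describes an siRNA transfection that neither group name mentions. Nothing stated that the replicates were separate cultures, so p-values measure only the spread between these samples, which may be technical.

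A collagen is a trimer of chains wound into a triple helix. Fibrillar collagens build the fibres of connective tissue, type IV collagen forms the sheet of the basement membrane, type VI forms beaded filaments near cell surfaces, type VII anchors the basement membrane to the tissue beneath, and type XVII spans the membrane of epithelial cells at hemidesmosomes. A laminin is a cross-shaped trimer of an alpha, a beta and a gamma chain. LAMA3 and LAMB3 are chains of the epithelial laminin, which the integrin of the ITGA6 and ITGB4 chains binds at the basement membrane, while laminins that hold LAMA5, LAMB1 or LAMB2 and LAMC1 occur in basement membranes more widely. The urothelium, the lining of the bladder, rests on such a membrane.

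The total counts were between 40029547 and 41259569 per sample, and a count of 0 allowed a level of up to between 0.0727 and 0.0749 CPM (counts scaled to the library's total), for counting error only. RNF112 itself went from 27, 19 and 24 counts to 29753, 36963 and 31712 with oeRNF112, a count that can hold reads of the added RNF112 sequence. A total of 14467 genes were abundant enough to be tested with edgeR, and 2620 (18.1%) had an adjusted p under 0.05 in its quasi-likelihood test, 1442 (9.97%) higher and 1178 (8.14%) lower in oeRNF112. Scaling by library totals in place of TMM factors gave 2020 higher and 659 lower. Of the markers of other cell types, DCN, LUM, POSTN and FAP, which mark fibroblasts, stayed at 4 counts or fewer, and the 5 endothelial markers summed to between 5 and 27 counts per sample. The 5 leukocyte markers in the table summed to between 110 and 207. The 8 fibroblast and stroma markers, nearly all of it ACTA2, had a sum of 1167 to 1441 counts in vector and of 890 to 1064 in oeRNF112. The 6 epithelial markers had a sum of 141100 to 175442 in vector and of 114690 to 133616 in oeRNF112, with keratins abundant and the cadherin CDH1 at no more than 1 count in any sample.

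Of the 51 genes, 32 passed the filter (23 collagens and 9 laminins) and were taken as expressed in these cells. The other 19 reached no more than 15 counts, and 11 of them never had more than 1 count. RPKM (reads scaled to gene length and sequencing depth), the authors' per-length level, is used for every comparison between genes. A mean RPKM of at least 1 in either group was reached by 23 genes and an overall mean of at least 10 by 14.

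A group of 3 genes stood far above the rest in level per length. LAMB3, the beta chain of the epithelial laminin, was at 153 ± 9.60 RPKM in vector (mean ± SD, n = 3) and 231 ± 2.84 in oeRNF112. COL6A2 was at 158 ± 9.52 and 221 ± 14.8 RPKM, and COL6A1 at 125 ± 9.43 and 179 ± 14.7 RPKM, and these are the partner chains of type VI collagen. In vector the ranges of LAMB3 and COL6A2 overlapped, those of COL6A2 and COL6A1 did not, and COL6A1 lay above the next gene, LAMB1, in every vector sample. These 3 genes were at or above percentile 97.6 of the tested genes by level. COL6A1 and COL6A2 together made up 61.4%, 59.1% and 61.9% of the summed collagen RPKM with vector and 69.5%, 73.0% and 66.7% with oeRNF112. LAMB3 held 71.0%, 67.5% and 72.5% of the laminin beta chain RPKM in vector and 77.5%, 81.3% and 78.1% in oeRNF112. Neither of these shares overlapped between the groups.

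A further 11 genes followed, with overall means between 10.7 RPKM for COL8A1 and 40.2 for LAMB1. LAMB1 was at 42.3 ± 5.37 RPKM in vector and 38.1 ± 5.50 in oeRNF112, the type IV chain COL4A2 at 41.7 ± 4.17 and 35.0 ± 4.50, LAMA5 at 32.8 ± 6.76 and 37.7 ± 6.82, and LAMC1 at 32.6 ± 6.58 and 34.9 ± 6.24. The vector ranges of these 4 neighbours overlapped from each to the next. COL5A2 was at 27.5 ± 3.77 and 24.01 ± 4.28 RPKM, COL7A1 (the anchoring fibril) at 21.9 ± 4.77 and 25.2 ± 6.27, and LAMB2 at 22.3 ± 2.38 and 23.7 ± 2.80. The transmembrane collagens COL13A1 (18.8 ± 1.89 and 18.6 ± 1.81 RPKM) and COL17A1 (9.55 ± 0.178 and 13.6 ± 0.845), the source gene of endostatin COL18A1 (21.0 ± 1.76 and 13.5 ± 1.30) and the network collagen COL8A1 (11.01 ± 1.15 and 10.3 ± 1.57) completed these. In the order of overall means the vector ranges of neighbours from LAMB1 to COL18A1 overlapped. COL17A1 lay below both COL18A1 and COL8A1 in every vector sample.

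Below these came COL12A1 (8.65 ± 2.88 RPKM in vector and 8.21 ± 2.26 in oeRNF112), COL4A5 (5.11 ± 1.10 and 5.78 ± 1.16), COL9A3 (5.31 ± 0.772 and 4.94 ± 0.531), COL4A1 (4.62 ± 0.714 and 4.84 ± 0.905) and COL27A1 (2.77 ± 0.652 and 3.36 ± 0.570). COL4A6 (2.02 ± 0.234 and 2.77 ± 0.670 RPKM), LAMA3 (2.20 ± 0.570 and 2.12 ± 0.288), LAMA4 (1.72 ± 0.238 and 1.82 ± 0.0470) and COL1A1 (1.34 ± 0.233 and 1.72 ± 0.0519) were the last above 1 RPKM. The alpha chain LAMA3 was far below its partner chain LAMB3 in level per length. The level of COL4A1 depends on the gene length used in the table, 15595 bases against 6446 for COL4A2. Under 1 RPKM in every group mean were COL16A1 (0.860 and 0.876), LAMA1 (0.219 and 0.797), COL9A2 (0.318 and 0.424), COL8A2 (0.0805 and 0.235), COL11A2 (0.120 and 0.163), COL6A3 (0.0217 and 0.0784), COL3A1 (0.0402 and 0.0571), COL5A1 (0.0327 and 0.0508) and LAMA2 (0.0490 and 0.0329).

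**Figure D1:**
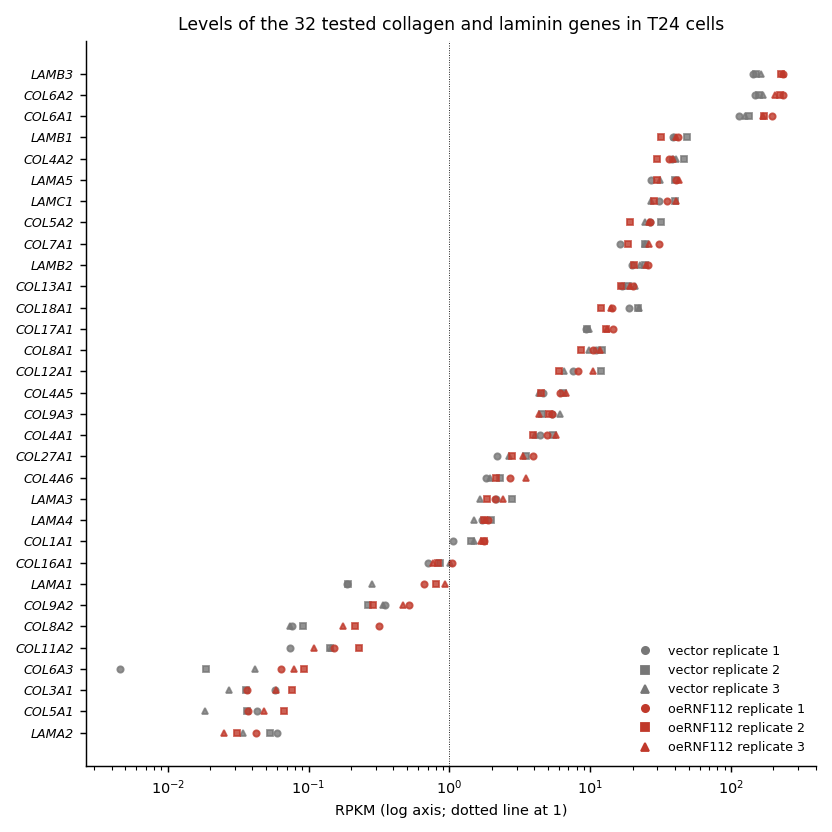
Level per length (RPKM, log axis) of the 32 collagen and laminin genes that passed the filter, in order of their mean, with 1 point per sample (grey for vector, red for oeRNF112, the shape giving the replicate) and a dotted line at 1 RPKM. LAMB3, COL6A2 and COL6A1 stand above 100 RPKM in every sample, and 9 genes lie mostly under 1 RPKM.

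The genes that did not pass the filter included several that define connective tissue. COL1A2, the partner of COL1A1 in type I collagen, had 1, 0 and 0 counts in vector and 0, 0 and 1 in oeRNF112. COL14A1, COL15A1, COL20A1, COL21A1 and COL2A1 also had no more than 1 count in any sample, and so did COL9A1, COL22A1, COL24A1, COL25A1 and COL6A6, which were at 0 in the vector samples. COL4A4 had 5, 9 and 4 counts in vector and 6, 9 and 15 in oeRNF112, and its partner COL4A3 had 0, 0 and 2 and then 1, 2 and 0. COL11A1 (1, 0 and 4 counts in vector, 3, 6 and 10 in oeRNF112), COL26A1 (4, 1 and 1, then 6, 1 and 10), COL5A3 (1, 1 and 5, then 1, 6 and 5) and COL28A1 (2, 3 and 0, then 2, 0 and 1) had at most 10 counts. LAMB4 had 1, 0 and 3 counts in vector and 3, 8 and 1 in oeRNF112, and LAMC3 had 0, 0 and 2 and then 5, 3 and 2. These counts are too few to compare between the groups.

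Between the groups, 9 of the 32 tested genes (28.1%) had an adjusted p under 0.05, against 18.1% of all tested genes, 7 of them higher in oeRNF112 (9.97% of all genes) and 2 lower (8.14% of all genes). The laminins LAMA1 and LAMB3 and the collagens COL6A1, COL6A2, COL8A2 and COL17A1 rose, and the basement membrane collagens COL18A1 and COL4A2 fell. COL6A3 was the other gene called higher, but it reached the filter's minimum in 1 vector sample and all 3 oeRNF112 samples. It was therefore tested because of the group where it was high. Its call held in 6 of 14 alternative analyses, and that of COL4A2 in 4 of 15. In TMM-normalized CPM, all samples of 1 group lay above all of the other in 11 of the 32 genes, these 9 with COL1A1 and LAMB1, against 36.8% of all genes. The median log2 fold change was 0.097 over the 32 genes and 0.003 over all genes. At an unadjusted p under 0.05 there were 10 genes, the added one being COL4A6. In RNA of whole cultures, a change in the number of cells that express a gene and in the RNA per cell cannot be told apart. Of the 5 tested epithelial markers KRT7 and KRT18 fell and EPCAM rose in the same samples (edgeR adjusted p = 0.0226, 0.0130 and 0.0208), and their part in these results was not tested. COL6A1 and COL6A2, the abundant chains of type VI collagen, were among the genes that rose. Of the fibrillar collagens 0 of 6 passed the test, and of the FACIT collagens (those that sit on the surface of fibrils) 0 of 4. With 18.1% of all genes called, classes of 6 and 4 genes are too small for 0 calls to set them apart.

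**Figure D2:**
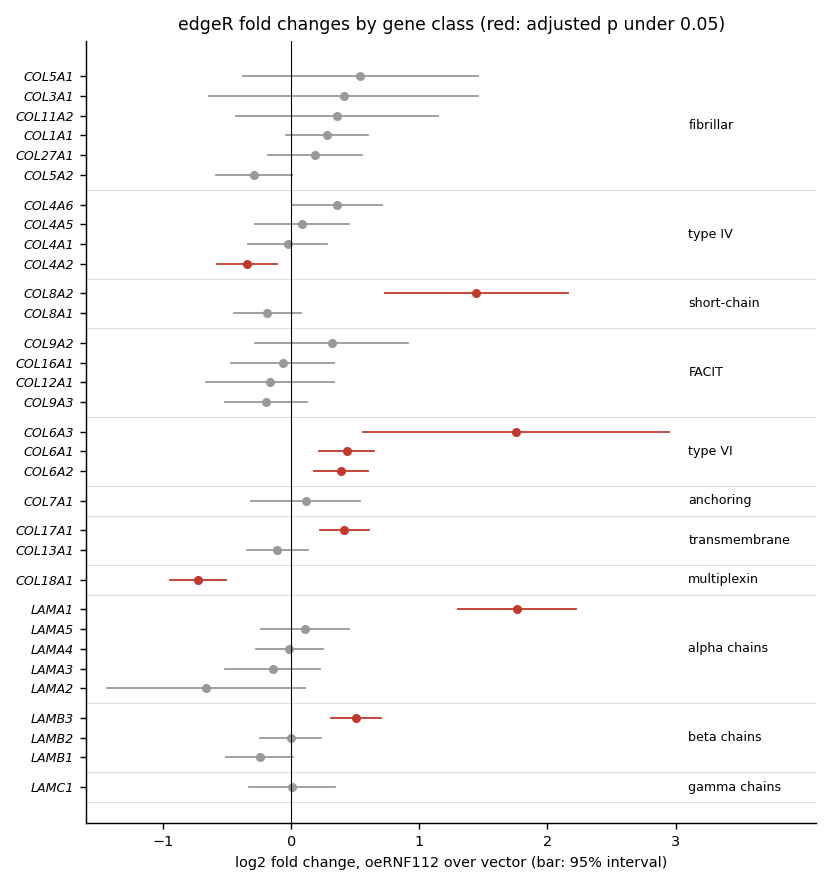
Log2 fold change of oeRNF112 over vector from edgeR for the 32 tested genes, grouped by class, with 95% intervals as bars and genes past an adjusted p of 0.05 in red. LAMA1, COL6A3 and COL8A2 lie above 1, COL18A1 at -0.73 is the lowest gene past the threshold, and the fibrillar and FACIT collagens cross 0.

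The upstream sequences of 4 of these genes are shown. COL6A2, LAMB3 and COL17A1 were the called genes of highest level among type VI collagens, laminin beta chains and transmembrane collagens, and COL18A1 was the called gene that fell most. Called genes of other classes, such as COL4A2 and COL8A2, are not shown. The LAMB3 start shown is the only 1 of its 3 with an AP-1 site in its promoter window. Of the 51 genes, 38 had an entry in RefSeq's table of promoters (250 bases before to 50 after a start, GRCh38.p14), which covered 25 of the 32 tested and 7 of the 9 called genes, without COL6A1 and LAMA1. The stretches run 5′ to 3′ on the gene's strand and hold no GENCODE v29 exon. COL6A2 is at chr21:46097862-46098096 on the plus strand, COL18A1 at chr21:45404915-45405136 on the plus strand before the first of its starts, LAMB3 at chr1:209651395-209651624 on the minus strand before the last of its 3 starts, and COL17A1 at chr10:104085958-104086130 on the minus strand. Capitals mark the GC box GGGCGG or its reverse complement and, in LAMB3 alone, the AP-1 site TGANTCA, which reads the same on both strands.
COL6A2: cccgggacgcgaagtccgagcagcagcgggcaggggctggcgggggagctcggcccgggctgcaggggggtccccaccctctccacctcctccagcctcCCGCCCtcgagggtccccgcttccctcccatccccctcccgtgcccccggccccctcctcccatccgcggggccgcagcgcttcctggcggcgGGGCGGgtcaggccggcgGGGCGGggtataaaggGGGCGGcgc
LAMB3: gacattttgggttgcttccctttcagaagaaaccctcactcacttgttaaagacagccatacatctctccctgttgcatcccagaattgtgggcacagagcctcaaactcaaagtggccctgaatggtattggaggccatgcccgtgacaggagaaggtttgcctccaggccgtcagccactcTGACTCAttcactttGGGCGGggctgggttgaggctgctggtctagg
COL17A1: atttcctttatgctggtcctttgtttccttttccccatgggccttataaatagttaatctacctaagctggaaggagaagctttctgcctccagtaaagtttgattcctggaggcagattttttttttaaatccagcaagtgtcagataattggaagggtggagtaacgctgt
COL18A1: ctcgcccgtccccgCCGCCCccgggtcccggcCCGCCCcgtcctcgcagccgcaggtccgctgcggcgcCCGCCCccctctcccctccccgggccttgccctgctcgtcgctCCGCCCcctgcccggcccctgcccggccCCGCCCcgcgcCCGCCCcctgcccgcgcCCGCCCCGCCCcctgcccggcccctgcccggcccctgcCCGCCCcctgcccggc

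GC made up 79.6% of the COL6A2 stretch, 53.5% of that of LAMB3, 40.5% of that of COL17A1 and 88.7% of that of COL18A1. The GC box occurred 4 times in the COL6A2 stretch, once in LAMB3, not in COL17A1 and 9 times in COL18A1. Both measures depend on the start taken. The stretch before the second COL18A1 start had 64.1% GC and 0 GC boxes, although a GC box lay at position -20 of that start, outside the stretch. The stretch before the first LAMB3 start had 64.6% GC, 1 GC box and 0 AP-1 sites. Over the whole promoter windows, 19 of 25 tested collagen and laminin genes (76.0%) held a GC box, against 75.8% of all 11415 tested genes with a promoter. An AP-1 site was held by 2 of 25 (8.0%), LAMA3 and LAMB3, against 7.45%. The E-box CACGTG was held by 0 of 25, against 12.2%, which says only that these letters were not in these windows.

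Of the chains of the epithelial laminin, LAMB3 rose and LAMA3 did not pass the test. LAMB3 (chr1:209614870-209652425) had 26925, 27834 and 29803 counts in vector and 42276, 41909 and 42634 in oeRNF112. Every oeRNF112 sample was well above every vector sample. It rose 1.42-fold (log2 fold change 0.50, standard error 0.0876, edgeR adjusted p = 0.00446). LAMA3 had 1007, 1278 and 754 counts in vector and 954, 843 and 1103 in oeRNF112, with overlapping groups and a 95% interval of its log2 fold change from -0.52 to 0.23.

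Among the other laminins, LAMA1 (chr18:6941742-7117797) changed most. This alpha chain is known from embryonic basement membranes. It had 75, 74 and 109 counts in vector and 253, 313 and 364 in oeRNF112, so that the lowest oeRNF112 sample held more than the highest vector sample, at a low level in both. It rose 3.40-fold (log2 fold change 1.76, standard error 0.207, edgeR adjusted p = 0.000664). Its share of the alpha chain RPKM was 0.609%, 0.420% and 0.804% in vector and 1.45%, 2.33% and 1.96% in oeRNF112, while LAMA5 held between 86.7% and 90.1% in all samples. The chains of the widespread laminins did not pass the test. LAMA5 had a log2 fold change of 0.11 (95% interval -0.23 to 0.45), LAMC1 of 0.01 (-0.33 to 0.34) and LAMB2 of -0.005 (-0.24 to 0.23). LAMB1, with 10467, 12775 and 10346 counts in vector and 10920, 8389 and 10653 in oeRNF112, was at -0.25 (-0.51 to 0.02). The groups of LAMB1 did not overlap once scaled by TMM factors, although its raw counts did. LAMA4 was at -0.015 (-0.28 to 0.25) and LAMA2, with 39, 34 and 22 counts against 27, 20 and 16, at -0.67 (-1.44 to 0.11).

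Ratios between chains within a sample do not depend on the library's scale. LAMC1 over LAMB1 was 0.787, 0.822 and 0.687 in vector and 0.840, 0.894 and 1.01 in oeRNF112, a 1.19-fold difference. LAMB2 over LAMB1 was 0.507, 0.505 and 0.570 in vector and 0.613, 0.644 and 0.612 in oeRNF112, a 1.18-fold difference. Both were higher in every oeRNF112 sample than in any vector sample, and both reached p = 0.1 in an exact two-sided permutation test, the smallest that 3 against 3 allows. Their adjusted p was 0.257 over the 9 ratios computed (exact permutation test), so none could pass. LAMB3 over LAMA3 was 66.8, 54.4 and 98.8 in vector and 111, 124 and 96.6 in oeRNF112, with overlap (p = 0.2, exact permutation test), and LAMA5 over LAMC1 overlapped too (p = 0.5, exact permutation test).

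**Figure D3:**
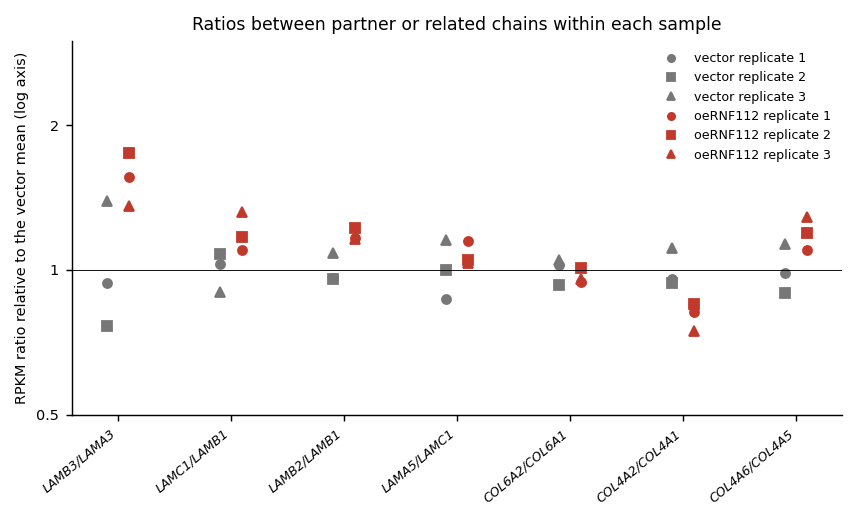
Ratio of the RPKM of partner or related chains within each sample, divided by the mean of the vector samples (log axis), for 7 pairs of chains, with vector in grey, oeRNF112 in red and the shape giving the replicate. LAMC1 over LAMB1 and LAMB2 over LAMB1 are higher in all oeRNF112 samples, COL4A2 over COL4A1 is lower, and COL6A2 over COL6A1 overlaps around 1.

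Both abundant chains of type VI collagen rose. COL6A1 (chr21:45981770-46005048) had 19882, 22694 and 21358 counts in vector and 32981, 29460 and 28637 in oeRNF112. COL6A2 (chr21:46098112-46132848), whose gene lies 93.1 kb away, had 26699, 27676 and 29422 counts in vector and 40844, 39015 and 36019 in oeRNF112. In both genes all oeRNF112 samples were above all vector samples. COL6A1 rose 1.35-fold (log2 fold change 0.43, standard error 0.0958, edgeR adjusted p = 0.0140) and COL6A2 1.31-fold (0.39, standard error 0.0954, edgeR adjusted p = 0.0212). The ratio of COL6A2 to COL6A1 was 1.30, 1.18 and 1.33 in vector and 1.20, 1.28 and 1.22 in oeRNF112 (p = 0.6, exact permutation test). COL6A3 (chr2:237324018-237414164), the large chain that completes the trimer, had 2, 8 and 18 counts in vector and 27, 40 and 34 in oeRNF112. All samples were low, and 1 vector sample and all oeRNF112 samples reached the filter's minimum of 10 counts. Its log2 fold change was 1.75 (standard error 0.537, edgeR adjusted p = 0.0482), and it was no longer called without vector replicate 1 or 2 or without any 1 of the oeRNF112 samples (highest adjusted p over all alternatives 0.141). Of the fibroblast and stroma markers, PDGFRA also had 1, 3 and 8 counts in vector and 19, 29 and 19 in oeRNF112. ACTA2 fell (log2 fold change -0.55, edgeR adjusted p = 0.0233), PDGFRB was at -0.33 and did not pass the test, THY1 had 3 to 14 counts, and DCN and LUM were at most at 3 counts. Their part in the result was not tested.

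COL17A1 (chr10:104031286-104085880), the transmembrane collagen of hemidesmosomes, had 2179, 2157 and 2207 counts in vector and 3263, 2942 and 3000 in oeRNF112. The groups were clearly apart, with vector replicates close together. It rose 1.33-fold (log2 fold change 0.41, standard error 0.0858, edgeR adjusted p = 0.0106). The other tested transmembrane collagen, COL13A1, was at -0.11 (95% interval -0.34 to 0.13). COL8A2 (chr1:36095239-36125222), a short-chain collagen of basement membrane networks, had 17, 20 and 16 counts in vector and 68, 47 and 38 in oeRNF112. It rose 2.72-fold at a low level (log2 fold change 1.45, standard error 0.322, edgeR adjusted p = 0.0141), without overlap, whereas its more abundant partner COL8A1 was at -0.19 (-0.45 to 0.07). Without vector replicate 1 or without oeRNF112 replicate 1, COL6A1, COL6A2, COL17A1 and COL8A2 were not called, with adjusted p-values up to 0.15 over all alternatives for COL6A2, and 3 of the 32 genes then passed, LAMA1, LAMB3 and COL18A1. Of all genes, 1061 of 14768 passed without vector replicate 1 and 1263 of 14701 without oeRNF112 replicate 1.

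COL18A1 and COL4A2 fell. COL18A1 (chr21:45405165-45513720), a basement membrane collagen that carries heparan sulphate and releases endostatin, had 5295, 5984 and 6048 counts in vector and 3888, 3293 and 3863 in oeRNF112. No oeRNF112 sample reached the lowest vector sample. It fell to 60.2% of vector (log2 fold change -0.73, standard error 0.0977, edgeR adjusted p = 0.00132). COL4A2 (chr13:110307284-110513209) had 10101, 12057 and 10618 counts in vector and 9407, 7821 and 10032 in oeRNF112. It fell to 78.6% of vector (log2 fold change -0.35, standard error 0.106, edgeR adjusted p = 0.0479), just inside the threshold. This call was lost whenever any 1 of the 6 samples was left out and when library totals set the scale (largest adjusted p over all alternatives 0.196). The groups of COL4A2 did not overlap in TMM-normalized CPM but did in RPKM, with 37.98 in vector replicate 1 and 38.55 in oeRNF112 replicate 3.

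COL4A1 and COL4A2 form the most common type IV trimer and are read in opposite directions from starts with 126 bases between them (GRCh38.p14, chromosome 13, COL4A1 on the minus strand from 110307157, COL4A2 on the plus strand from 110307284). COL4A1 had 2818, 3427 and 2556 counts in vector and 3078, 2464 and 3590 in oeRNF112, with overlapping groups and a log2 fold change of -0.03 (95% interval -0.34 to 0.28). The ratio of COL4A2 to COL4A1 in RPKM was 8.67, 8.51 and 10.1 in vector and 7.39, 7.68 and 6.76 in oeRNF112. The size of this ratio depends on the lengths used, 6446 bases for COL4A2 and 15595 for COL4A1. Whether the samples' trends along gene length, given below, enter the ratio was not tested. The ratio was lower in every oeRNF112 sample, 0.803 of vector, with the p of 0.1 that is the smallest the exact permutation test allows (adjusted p = 0.257). The X-linked pair COL4A5 and COL4A6, whose genes lie 380 bases apart, had log2 fold changes of 0.08 (-0.28 to 0.45) and 0.36 (0.01 to 0.71), and COL4A6 missed the threshold with an adjusted p of 0.145 from edgeR's test.

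**Figure D4:**
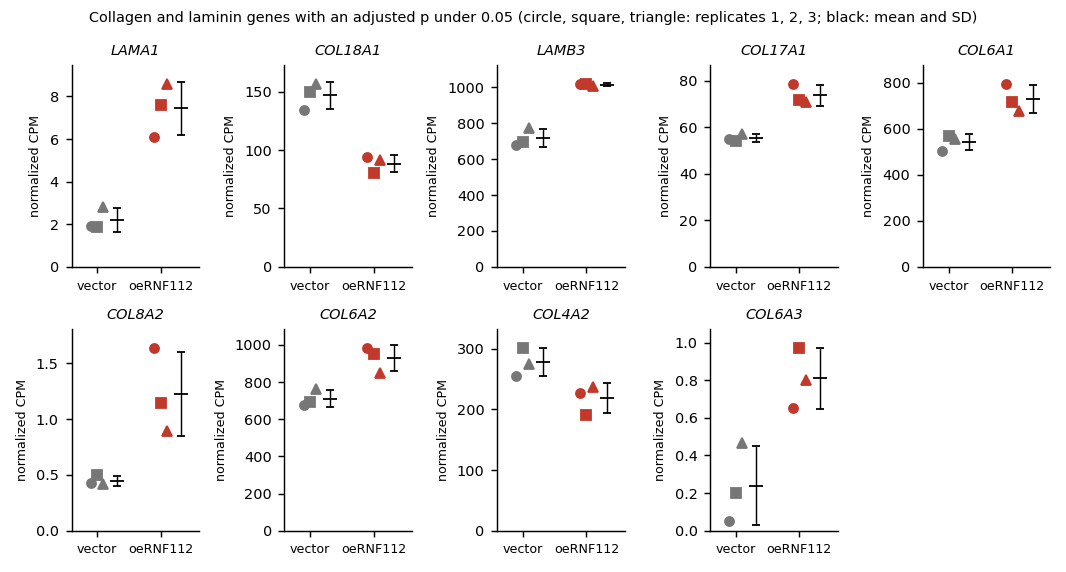
TMM-normalized CPM of the 9 genes with an adjusted p under 0.05, in order of that p, with 1 point per sample (grey for vector, red for oeRNF112) and the mean and SD of 3 samples in black on axes that start at 0. In all 9 genes the groups do not overlap on this scale (those of COL4A2 do in RPKM), LAMB3 shows small SDs, and COL6A3 and COL8A2 lie under 2 CPM.

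Of 11 fibrillar collagens 6 were tested, most of them at low levels, and none passed the test. COL5A2, the only one above 5 RPKM, had 7627, 8966 and 6875 counts in vector and 7491, 5403 and 7374 in oeRNF112 and a log2 fold change of -0.29 (95% interval -0.59 to 0.004). COL1A1 had 262, 345 and 360 counts in vector and 418, 421 and 399 in oeRNF112, without overlap, at 0.27 (-0.04 to 0.60) and an adjusted p of 0.210 from edgeR's test. COL27A1 was at 0.19 (-0.18 to 0.56). COL3A1, COL5A1 and COL11A2, with at most 79 counts, had intervals that reached from below -0.37 to above 1 and did not pass the test. The FACIT collagens COL9A3 (-0.20), COL12A1 (-0.17), COL16A1 (-0.07) and COL9A2 (0.31) and the anchoring collagen COL7A1 (0.11, interval -0.31 to 0.54) did not pass. COL7A1 ranged from 6323 to 9336 counts within vector and from 7030 to 11598 within oeRNF112, a spread wider than the difference between the groups.

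Many of the genes that did not pass shared their spread between replicates. Vector replicate 2 was the highest of its group for 13 of the 23 uncalled genes, and oeRNF112 replicate 2 the lowest of its group for 15. Their median log2 deviation from the own group mean was -0.097, 0.166 and -0.078 across vector and 0.094, -0.216 and 0.068 across oeRNF112. For the 4090 tested genes of at least 6000 bases it was -0.015, 0.15 and -0.124 and then -0.001, -0.108 and 0.109. Across all tested genes, a gene's length and its deviation had a Spearman correlation of -0.106, 0.539 and -0.494 in vector and -0.006, -0.488 and 0.505 in oeRNF112, given as a description since the genes share their library. Collagen and laminin genes were long, with a median of 6875 bases against 3982 for all tested genes, and 20 of the 32 had at least 6000 bases. With each sample's trend along gene length removed, an alternative chosen after seeing the data, all 9 genes were still called, COL5A2 and LAMB1 were called lower in addition, and 4132 of all genes were called.

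**Figure D5:**
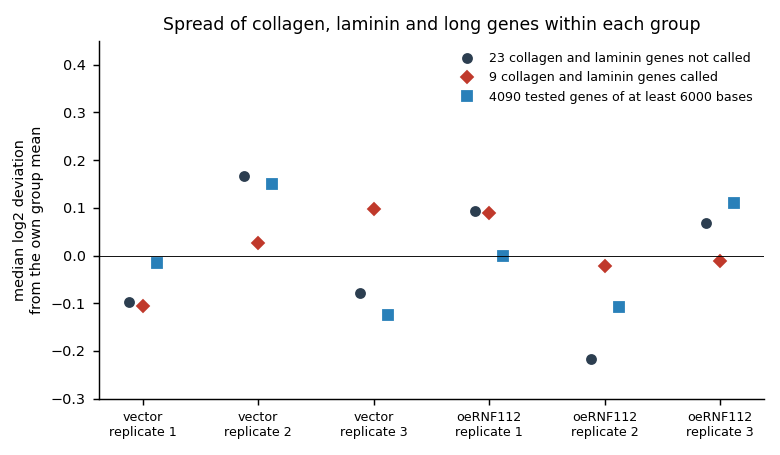
Median log2 deviation from the own group mean in each of the 6 samples, for the 23 uncalled and the 9 called collagen and laminin genes and for all tested genes of at least 6000 bases. The uncalled genes are highest in vector replicate 2 and lowest in oeRNF112 replicate 2, while the called genes lie between -0.105 and 0.098.

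Of 37 genes that modify, secrete, cut or crosslink collagen, 35 were tested, 2 rose and 3 fell. This was 14.3% called against 18.1% of all genes, with a median log2 fold change of 0.002. Without oeRNF112 replicate 1, 3 of these genes were called, and 1263 of 14701 over all genes. SERPINH1, the chaperone HSP47 of procollagen, had 4920, 4838 and 5342 counts in vector and 3262, 3284 and 3014 in oeRNF112 and fell to 59.9% of vector (log2 fold change -0.74, standard error 0.0915, edgeR adjusted p = 0.000873). The crosslinking enzymes LOXL4 (60.7% of vector, edgeR adjusted p = 0.00158) and PXDN, which links type IV collagen (56.0%, 0.00353), also fell. P4HA2, an alpha subunit of collagen prolyl hydroxylase, rose 1.32-fold (edgeR adjusted p = 0.0177) and PCOLCE2, an enhancer of procollagen cleavage, 1.72-fold (0.0253). SERPINH1, LOXL4 and PXDN were called under all 15 alternatives, P4HA2 under 12 and PCOLCE2 under 11.

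Of 20 partners in the basement membrane and nearby matrix, 14 were tested, 2 rose and 2 fell (28.6% against 18.1% of all genes, median 0.057), and 2 were called without replicate 1 or without replicate 3 of either group. SPARC, a collagen-binding matrix protein, had 12570, 12156 and 11810 counts in vector and 7563, 7207 and 6956 in oeRNF112 and fell to 56.3% of vector (log2 fold change -0.83, standard error 0.0817, edgeR adjusted p = 0.000300). TINAGL1 fell to 70.2% (edgeR adjusted p = 0.00291), and FRAS1 and TNC rose 1.96-fold and 1.44-fold (0.0345 and 0.0425). SPARC was called under all 15 alternatives, TINAGL1 under 14, TNC under 9 and FRAS1 under 8. Of 16 receptors of collagen and laminin, 14 were tested, 1 rose and 5 fell (42.9% against 18.1% of all genes, median -0.066). The number of called receptors dropped from 6 to 1 without vector replicate 1, to 2 without oeRNF112 replicate 1 and to 3 without replicate 3 of either group. Calls over all genes also dropped, from 2620 to 1061 without vector replicate 1 and to 1263 without oeRNF112 replicate 1. They dropped to 1932 without vector replicate 3 and to 1446 without oeRNF112 replicate 3. ITGB4, the beta chain of the integrin that binds the epithelial laminin at hemidesmosomes, had 1185, 1324 and 999 counts in vector and 490, 435 and 431 in oeRNF112. It fell to 36.6% of vector (log2 fold change -1.45, standard error 0.120, edgeR adjusted p = 0.000135). The alpha chain of this integrin, ITGA6, did not fall. It had 13362, 15208 and 11252 counts in vector and 18265, 15855 and 20414 in oeRNF112, without overlap. Its log2 fold change was 0.37, and it did not pass the test (edgeR adjusted p = 0.0549). ITGA6 was at 53.8 RPKM in vector and 74.3 in oeRNF112, against 4.19 and 1.63 for ITGB4. LAMB3, a chain of this integrin's ligand, and the hemidesmosome collagen COL17A1 were higher in the same samples. The collagen receptor DDR1 (74.4% of vector, edgeR adjusted p = 0.0106) and the laminin receptors BCAM (75.1%, 0.0204) and DAG1 (76.7%, 0.0499) fell, RPSA, whose reads can be split with its many pseudogenes and is uncertain, was at 66.0% (0.0224), and ITGA1, the alpha chain of a collagen-binding integrin, rose 1.53-fold (0.0299). ITGB4 was called under all 15 alternatives, DDR1 under 13, ITGA1 under 10 and BCAM and RPSA under 8 each. DAG1 was only just inside the threshold, and its calls under the alternatives were not examined.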

How the data were processed

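RNA-seq reads of 3 vector and 3 oeRNF112 samples of T24 cells were counted per gene by the authors, who deposited raw counts and RPKM. The submitters' processing notes name Trimmomatic 0.36, featureCounts, Subread 1.5.1 and GRCh38. The aligner, annotation and strand setting are not given in the sources used here. Dividing each count by its library's total and the gene's length gave back the deposited RPKM for 23152 of 23152 genes (tolerance 0.1%). Counts were analysed with edgeR 4.0.16 in R 4.3.3 (filterByExpr with a minimum count of 10, about 0.247 CPM, TMM factors between 0.957 and 1.049, quasi-likelihood test), fitted on all genes, with Benjamini-Hochberg adjustment over the 14467 tested genes and a threshold of 0.05. Standard errors were worked back from each log2 fold change and the F statistic of its test, and 95% intervals were built from them with a t quantile. Chain ratios used RPKM within a sample and an exact permutation test. No library repeated another.

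The members and lists were chosen with earlier results of these data known. Of the rows that matched the rule, 1 is not reported here. Every other tested member is named, with values per sample for called genes and those of highest level, as well as, after their values were seen, for uncalled partner chains, fibrillar collagens and PDGFRA among the stroma markers. Of the other lists at most 5 called genes with the smallest p are named, and DAG1 and the uncalled ITGA6 were added after their values were seen. Alternatives were DESeq2 1.42.0, its size factors, library totals, other filters, limma 3.58.1 on log2(RPKM + 1) and log2(RPKM + 0.1), a replicate block, each sample left out and, added later, removal of the length trend (lowess span 0.3). Scripts were tested on simulated data.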

Additional observations from a re-analysis of the deposited data

How the results depend on the processing

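LAMA1 and COL18A1 were called under all 15 alternatives, LAMB3 under 14, COL8A2 under 13, COL6A1, COL6A2 and COL17A1 under 12, COL6A3 under 6 of 14 and COL4A2 under 4 of 15. Called were 9 of 32 genes with DESeq2 and with its size factors, 9 of 51 with no filter and 8 of 32 with library totals (1 lower). It was 7 of 29 with at least 10 counts in every sample (1 lower), 7 of 32 in both limma fits (1 lower each) and 11 of 32 with the length trend removed (4 lower). Of all genes, DESeq2 called 3243 of 14467, its size factors 2621, no filter 2587 of 23152 and library totals 2679. With at least 10 counts in every sample it was 2425 of 13451, with limma 2532 (pseudocount 1) and 2601 (0.1), and with the length trend removed 4132 of 14467. Leaving out a sample gave 3 to 8 called genes, 2 to 7 higher and 1 lower. Of the other lists, leaving out a sample gave 3 to 6 called biosynthesis genes, 2 to 4 partners and 1 to 7 receptors, and limma on log2(RPKM + 0.1) gave 2 partners. Over all genes, leaving out a sample gave between 1061 calls (without vector replicate 1) and 3387 (without vector replicate 2). The cause of these changes was not tested.

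Same-numbered samples did not deviate together (correlations -0.116, -0.363 and -0.296), so the numbers were not taken as pairs. The replicate block gave 3 called genes (LAMA1, COL8A2 and COL18A1, 2 higher and 1 lower), with 3 biosynthesis genes, 1 partner and 1 receptor, and 876 of all genes against 2620.

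Sign changes were seen only in genes that were not called. With library totals, limma with a pseudocount of 1 and limma with 0.1, log2 fold changes were 0.028, 0.014 and 0.028 for COL16A1, 0.067, 0.051 and 0.059 for COL4A1, 0.077, 0.053 and 0.081 for LAMA4 and 0.089, 0.084 and 0.087 for LAMB2 (0.0034 with at least 10 counts in every sample). LAMC1 was at -0.069 with the length trend removed. With a sample left out, the ranges were -0.37 to 0.11 for COL12A1, -0.20 to 0.082 for COL16A1, -0.15 to 0.11 for COL4A1, -0.029 to 0.25 for COL4A5, -0.060 to 0.30 for COL7A1, -0.31 to 0.041 for LAMA3, -0.10 to 0.070 for LAMA4, -0.067 to 0.091 for LAMB2 and -0.11 to 0.16 for LAMC1. The 7 tested genes with a mean under 100 counts had wide intervals.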
